A study of Homo sapiens with 8 samples.

Results

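The genes that write, read and repair DNA methylation were followed on 8 expression arrays of HEK293T cells given a TET1 shRNA, a TET1 plasmid or a control. The set holds 29 symbols. For each symbol the transcript cluster, the array's unit of measurement for a gene, with the highest mean over the 8 arrays was taken. The annotation named a cluster for 21 of the 29 symbols, with 1 cluster each, among 53617 clusters with values. UHRF2, HELLS, MBD3, GADD45A, GADD45B, GADD45G, IDH1 and IDH2 were not analysed here. The TET genes are not members.

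HEK293T is a line of human embryonic kidney origin with the large T antigen of SV40. The groups were 2 lentiviral TET1 shRNA clones (shTET1#1 and shTET1#2) and 1 lentiviral control shRNA clone (shControl), each a single clone, and cells transfected with a plasmid for TET1-FL, mTET1-FL, TET1-CD or mTET1-CD or with the empty vector. FL stands for full-length TET1 and CD for its catalytic domain alone, and the prefix m marks the catalytically mutant protein. At 3 days after transfection the plasmid cells were purified by a fluorescence sort, whereas the labels give no sort for the shRNA clones. Each clone or plasmid was measured on 1 array from 100 ng of total RNA, and no label names replicate cultures, ages of the clones or hybridisation batches.

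In vertebrate DNA, methylation sits mainly on cytosines of CpG pairs. After replication UHRF1 binds the half-methylated CpG and brings in DNMT1, which copies the mark to the new strand, while DNMT3A and DNMT3B set marks on unmethylated sites and DNMT3L, itself inactive, assists them. TET enzymes oxidise methylcytosine, and TDG cuts out the most oxidised forms, after which APEX1 opens the strand at the empty site and XRCC1 holds the sealing enzymes together. Methyl-CpG binding proteins (MBD1, MBD2, MBD4, ZBTB33, ZBTB4, ZBTB38) read the mark, and proteins with a CXXC zinc finger mostly bind unmethylated CpG.

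The promoters of 4 members are shown because their products stand in the excision step that follows TET or read methylated DNA, and because they had some of the largest differences between lentiviral and plasmid arrays below. Each is the 250 bases before the gene's start in RefSeq on build GRCh38.p14, 5′ to 3′ on the gene's own strand, with every CpG in capitals. TDG lies at chr12:103965622-103965871 (plus strand, 22 CpG), APEX1 at chr14:20454976-20455225 (plus strand, 16 CpG), XRCC1 at chr19:43575528-43575777 (minus strand, 30 CpG) and MBD4 at chr3:129439949-129440198 (minus strand, 26 CpG).
TDG: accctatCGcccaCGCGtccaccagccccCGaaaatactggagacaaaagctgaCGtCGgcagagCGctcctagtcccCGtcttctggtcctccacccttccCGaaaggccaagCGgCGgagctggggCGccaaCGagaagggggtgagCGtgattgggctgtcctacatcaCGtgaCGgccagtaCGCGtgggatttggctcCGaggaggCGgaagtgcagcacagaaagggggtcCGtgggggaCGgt
APEX1: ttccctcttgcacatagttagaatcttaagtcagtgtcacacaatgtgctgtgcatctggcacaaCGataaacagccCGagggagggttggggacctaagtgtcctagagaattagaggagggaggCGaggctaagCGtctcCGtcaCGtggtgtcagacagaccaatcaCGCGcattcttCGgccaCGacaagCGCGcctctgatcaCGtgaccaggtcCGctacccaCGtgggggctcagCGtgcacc
XRCC1: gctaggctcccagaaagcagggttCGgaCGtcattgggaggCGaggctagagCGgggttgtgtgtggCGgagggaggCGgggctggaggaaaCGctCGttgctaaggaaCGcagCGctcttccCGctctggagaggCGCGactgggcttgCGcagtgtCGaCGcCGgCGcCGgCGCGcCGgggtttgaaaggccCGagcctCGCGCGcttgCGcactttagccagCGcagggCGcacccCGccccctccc
MBD4: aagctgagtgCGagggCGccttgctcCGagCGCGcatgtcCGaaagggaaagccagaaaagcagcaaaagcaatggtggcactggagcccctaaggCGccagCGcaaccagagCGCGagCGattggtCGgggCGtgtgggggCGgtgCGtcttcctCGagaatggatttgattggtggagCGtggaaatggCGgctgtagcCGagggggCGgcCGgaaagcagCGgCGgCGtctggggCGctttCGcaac
Over all 35116 such windows in the table, the median was 11 CpG, and the 42 windows of the 18 members with an entry had a median of 21. In 13 of these 18 members every window held more CpG than the median of 11 over all windows. The matching share over all genes was not counted, so this is not read as a trait of the set. Among the 13 members with a single start, the lowest count was 3 in DNMT3B and the highest 36 in NTHL1. DNMT3L, SMUG1 and NEIL2 had no entry. The letters TTTCGCGC, TTTCCCGC, TTTGGCGC or TTTGCCGC on either strand, forms of the site bound by E2F factors, stood in 3 member windows (7.14%), those of UHRF1 and ZBTB4, against 2.79% of all windows. The arrays measured RNA and not the methylation of these windows.

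The deposited values are log2 signals normalized by the authors. Levels of different genes cannot be set against each other on this scale, since each cluster has its own probes. Array medians lay between 5.47 and 5.55, pairs of arrays correlated at 0.932 to 0.988 over the 28946 clusters kept by a filter on low signal (above the array's median on at least 2 arrays), and 0 pairs of arrays held identical values. TET1 itself, read by 2 clusters, gave 8.62 for shTET1#1 and 9.14 for the array labelled shTET1#2, against 9.29 for shControl, by cluster 16705381. By cluster 16715048 the TET1 shRNA clones gave 5.27 and 6.20, against 5.71 for shControl. The array labelled shTET1#2 thus had a TET1 signal close to or above that of the control clone, and the fitted knockdown differences of -0.41 ± 0.27 and 0.02 ± 0.40 (SE) had adjusted p-values of 0.782 and 0.997 in limma. Every knockdown difference below is read with that in view. The 4 TET1 plasmid arrays had 11.80 to 12.10 for cluster 16715048, against 5.86 with the vector. Of 10 markers of HEK293T the annotation named 5 (PAX2, LHX1, EPCAM, KRT8 and KRT18), and all 5 passed the filter. Of 12 markers of fibroblasts, endothelium, blood and liver it named 5 (DCN, LUM, PECAM1, VWF and ALB), and all 5 lay below the median on every array.

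All 21 members passed the filter, and 20 of them lay above the median on every array. The exception was DNMT3L, the germ-cell partner of the de novo enzymes, whose values of 4.93 to 5.77 lay near the array medians. It passed through 2 lentiviral arrays, shTET1#2 and shControl, and lay below the median on the other arrays, 0 of the 4 TET1 plasmid arrays exceeding theirs, so background may limit its differences. The members varied modestly. Their SD over the 8 arrays had a median of 0.180, against 0.221 for all kept clusters and 0.196 for kept clusters with a gene name. A spread of 2-fold or more between the highest and the lowest array was found in 3 members (14.3%), MBD4 (1.12 log2 units), UHRF1 (1.08) and TDG (1.01), against 22.7% of all kept clusters and 12.6% of the named ones. CXXC4 was the steadiest, with an SD of 0.0889, and MBD4 the most variable, with an SD of 0.379. A lower signal in such pooled cells can stand for fewer cells that express a gene or for less RNA per cell, which these arrays cannot tell apart.

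**Figure D1:**
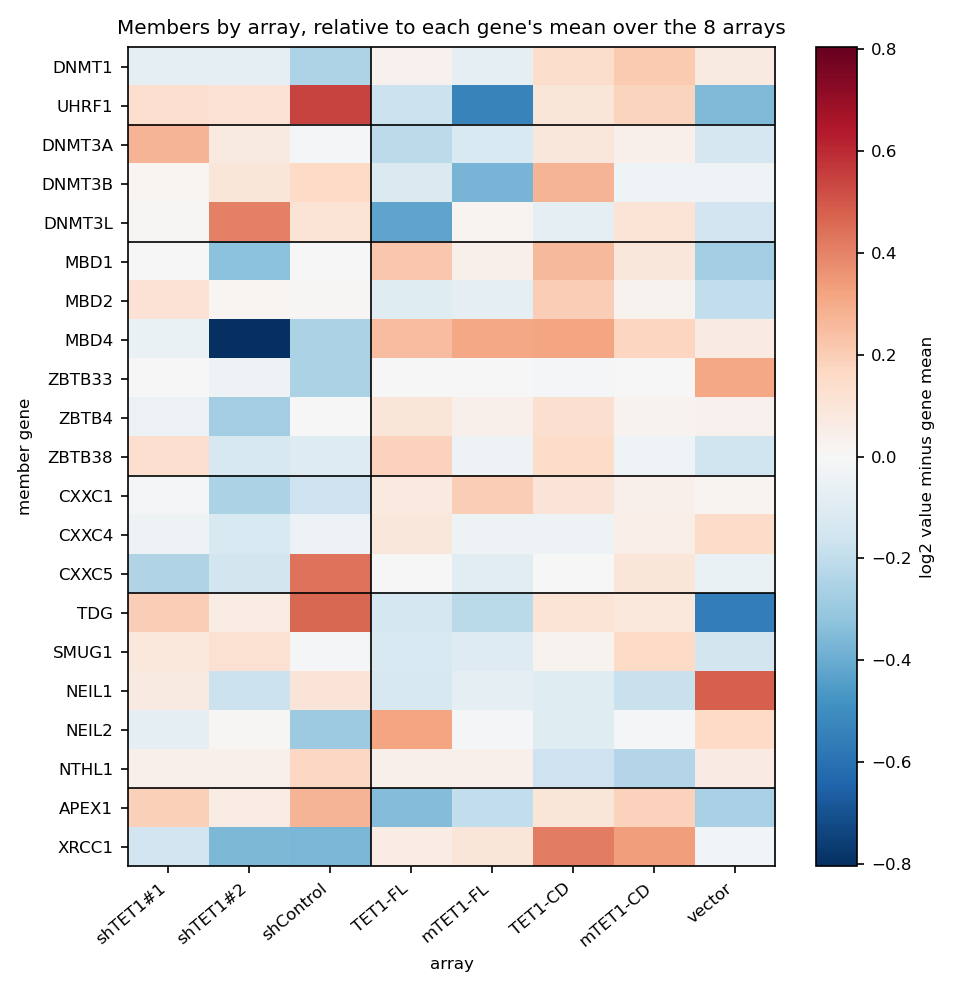
Log2 value of each member (rows, by role) on each array (columns), minus the gene's mean over the 8 arrays; red is higher and blue lower. MBD4 in shTET1#2 (7.52) is the darkest blue cell, and UHRF1 and TDG are high in shControl and low with the vector.

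Of the maintenance pair, DNMT1 is the enzyme that copies methylation. It measured 10.51 and 10.51 in the TET1 shRNA clones and 10.34 in shControl, then 10.61 with TET1-FL, 10.51 with mTET1-FL, 10.73 with TET1-CD, 10.79 with mTET1-CD and 10.66 with the vector. The control clone was the lowest of all 8 arrays and the CD plasmids the highest, within 0.46 log2 units. UHRF1, the protein that recognises half-methylated CpG, measured 9.15 and 9.13 in the TET1 shRNA clones and 9.56 in shControl. It measured 8.84 with TET1-FL, 8.48 with mTET1-FL, 9.11 with TET1-CD, 9.19 with mTET1-CD and 8.65 with the vector. The control clone had the highest UHRF1 value and mTET1-FL the lowest, and both FL plasmids lay below both CD plasmids. DNMT1 and UHRF1 thus lay at opposite ends in the control clone.

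Among the de novo genes, DNMT3A had 7.05 and 6.85 in the TET1 shRNA clones, 6.76 in shControl, 6.57 to 6.87 with the TET1 plasmids and 6.64 with the vector. DNMT3B had 7.69 and 7.76 in the TET1 shRNA clones and 7.83 in shControl, followed by 7.55 with TET1-FL, 7.30 with mTET1-FL, 7.94 with TET1-CD, 7.63 with mTET1-CD and 7.64 with the vector. In each construct the wild-type plasmid gave the higher DNMT3B value, and both FL values lay below both CD values. DNMT3L, below the array median in these cells, had 4.93 with TET1-FL against 5.38 with mTET1-FL and 5.29 with TET1-CD against 5.47 with mTET1-CD.

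The readers spanned at most 0.59 log2 units apart from MBD4, which joins a methyl-CpG domain to a glycosylase that removes thymine from G-T mismatches. MBD4 measured 8.27 in shTET1#1 and 7.52 in shTET1#2, 8.07 in shControl, 8.57 with TET1-FL, 8.63 with mTET1-FL, 8.64 with TET1-CD, 8.49 with mTET1-CD and 8.39 with the vector. All 3 lentiviral arrays lay below all 5 plasmid and vector arrays, and the 2 TET1 shRNA clones stood on opposite sides of their control. MBD1, a repressor that reads methylated promoters, had 7.68 and 7.36 in the TET1 shRNA clones, 7.68 in shControl, 7.73 to 7.95 with the TET1 plasmids and 7.40 with the vector. ZBTB33 (Kaiso), a zinc-finger reader, had 9.56 and 9.52 in the TET1 shRNA clones, 9.31 in shControl, 9.54 to 9.56 with the TET1 plasmids and 9.87 with the vector, so its lowest and highest values were those of the 2 control arrays. MBD2, a subunit of a NuRD repressor complex, spanned 7.83 to 8.22. Of the other Kaiso-like readers, ZBTB4 spanned 7.13 to 7.54 and ZBTB38 spanned 6.09 to 6.44.

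Of the CXXC proteins, CXXC5, a nuclear regulator that also acts on Wnt signalling, had the widest range over the 8 arrays, 0.67 log2 units. It measured 7.17 and 7.27 in the TET1 shRNA clones and 7.85 in shControl, and 7.32 to 7.51 in the 4 TET1 plasmid arrays with 7.36 for the vector. The control clone was thus the highest of all 8 arrays, and the other 7 lay within 7.17 to 7.51. CXXC1, the subunit that leads a histone H3 lysine methyltransferase to unmethylated CpG islands, measured 7.94 and 7.70 in the TET1 shRNA clones, 7.79 in shControl, 8.00 to 8.16 with the TET1 plasmids and 7.98 with the vector. CXXC4, whose human gene lies near TET2, spanned only 5.68 to 5.95.

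Among the glycosylases, TDG measured 8.65 and 8.51 in the TET1 shRNA clones and 8.91 in shControl. It measured 8.31 with TET1-FL, 8.24 with mTET1-FL, 8.56 with TET1-CD, 8.54 with mTET1-CD and 7.90 with the vector. Its highest and lowest values were those of the 2 control arrays, with the other 6 arrays between them. NEIL1, which removes oxidised bases and can also aid TDG, measured 8.23 and 7.98 in the TET1 shRNA clones, 8.26 in shControl, 7.98 to 8.08 with the TET1 plasmids and 8.64 with the vector. The vector array was the highest for NEIL1 and the lowest for TDG. SMUG1, a uracil glycosylase, spanned 7.35 to 7.66, NEIL2, a relative of NEIL1, 5.76 to 6.37 and NTHL1, which removes oxidised pyrimidines, 7.41 to 7.81.

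In strand repair, APEX1 measured 10.85 and 10.72 in the TET1 shRNA clones, 10.93 in shControl, 10.31 with TET1-FL, 10.46 with mTET1-FL, 10.76 with TET1-CD, 10.84 with mTET1-CD and 10.39 with the vector. The FL and vector arrays formed its low end. XRCC1 measured 9.62 and 9.41 in the TET1 shRNA clones, 9.41 in shControl, 9.83 with TET1-FL, 9.87 with mTET1-FL, 10.18 with TET1-CD, 10.10 with mTET1-CD and 9.75 with the vector. All lentiviral arrays lay below all plasmid and vector arrays, and the CD plasmids were the highest. APEX1 and XRCC1 act in successive repair steps. In the control clone APEX1 was the highest of the 8 arrays, and XRCC1 was the lowest together with shTET1#2.

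**Figure D2:**
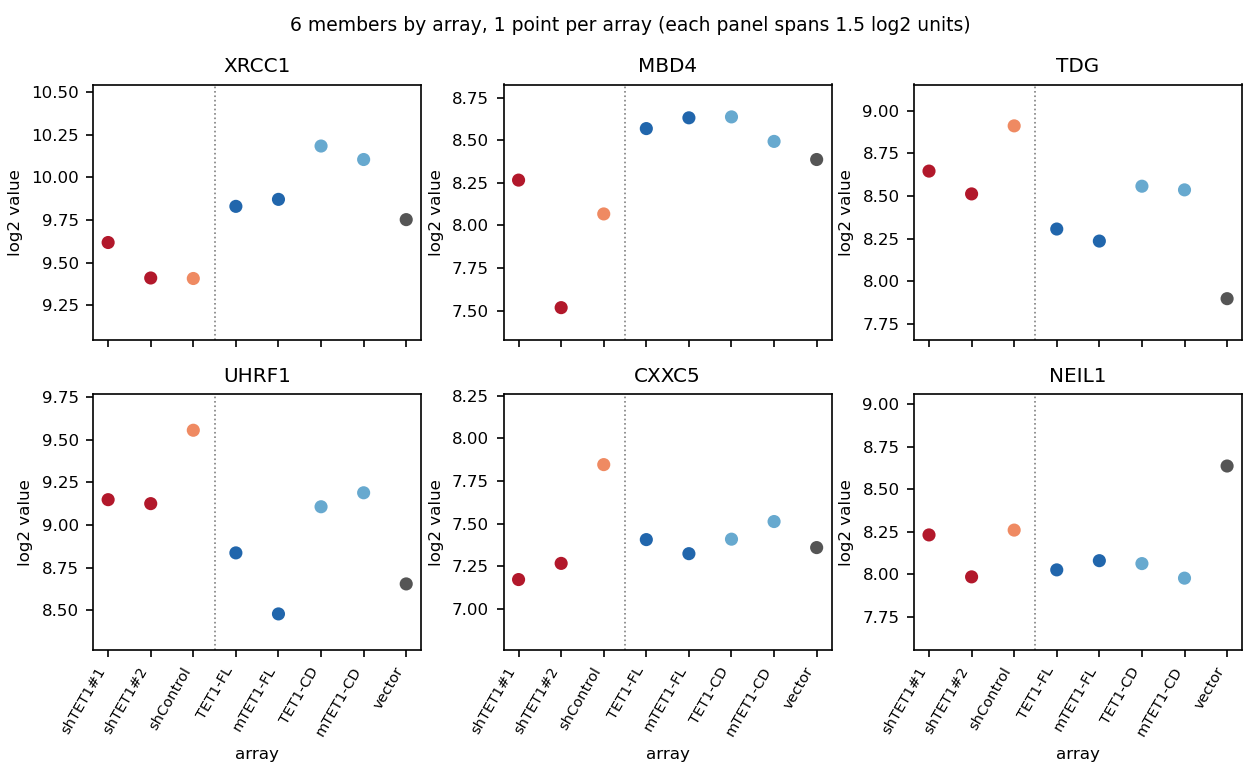
Log2 value (vertical axis) of 6 members on each array (horizontal axis), 1 point per array, with the lentiviral arrays left of the dotted line. XRCC1 and MBD4 do not overlap between lentiviral and plasmid or vector arrays; the control clone is the highest point for CXXC5, UHRF1 and TDG, and the vector the highest for NEIL1 and the lowest for TDG.

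The single control arrays weigh on every comparison made with them. The shControl array lay outside the range of the other 7 arrays for 9 members (42.9%), above it for UHRF1, CXXC5, TDG, NTHL1 and APEX1 and below it for DNMT1, ZBTB33, NEIL2 and XRCC1. The same was true of 29.1% of all kept clusters. The vector array lay outside for 7 members (33.3%), against 28.6% of clusters. Set against each other, vector minus shControl was -1.01 log2 units for TDG, -0.90 for UHRF1, -0.54 for APEX1, -0.49 for CXXC5 and 0.56 for ZBTB33. TDG was the 1 member at least 2-fold apart between the controls, lower with the vector as were 2.46% of clusters (4.54% in either direction). These differences have no test, since each side is 1 array.

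Differences between groups were tested in 1 limma fit over all 8 arrays, with Benjamini-Hochberg adjustment over the 28946 kept clusters and a threshold of 0.05. The fit had 2 residual degrees of freedom, which measure how far the TET1 shRNA clones differ and how far wild-type minus mutant differs between FL and CD. Its p-values therefore do not carry the spread of replicate cultures.

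Whether TET1 shRNA altered these genes was asked by the 2 clones against the control clone. No member passed the threshold (0 of 21), and neither did any cluster (0%). At an unadjusted p under 0.05 there was 1 member, CXXC5, against 7.93% of clusters (4.56% lower). CXXC5 had 7.17 and 7.27 in the TET1 shRNA clones, against 7.85 in shControl, a fitted difference of -0.63 ± 0.16 (SE, 95% interval -1.04 to -0.22, limma adjusted p = 0.536). With the vector array as the control, the CXXC5 difference was -0.14. The next largest was UHRF1, at -0.42 ± 0.19 (interval -0.91 to 0.071, limma adjusted p = 0.682), and its sign turned against the vector, where it was 0.48. TDG had -0.33 ± 0.15 and DNMT1 0.17 ± 0.15, and both signs turned against the vector, to 0.68 for TDG and -0.15 for DNMT1. The sign turned in this way for 10 of the 21 members. The share of all clusters whose sign turned was not counted, so this is not read as a trait of the members. Both clones lay above the control clone for 7 members (33.3%, against 29.4% of clusters) and below it for 8 (38.1%, against 33.1%). Taken singly, 0 members were 2-fold apart from shControl in shTET1#1 (1.99% of clusters) or shTET1#2 (3.28%). The 95% interval stayed within 2-fold in either direction for 19 members, all but CXXC5 and MBD4, and for 80.4% of clusters. The median member difference was -0.03, against -0.01 over all clusters.

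Wild-type against mutant plasmid addressed the oxidising activity of TET1. The TET1 signal itself had a fitted difference of -0.44 ± 0.22 (SE) by cluster 16705381 and -0.02 ± 0.32 by cluster 16715048. The part of TET1 level in this comparison was not tested. No member (0 of 21) and no cluster (0%) passed, and at an unadjusted p under 0.05 there were 0 members and 1.96% of clusters. DNMT3B had 0.28 ± 0.12 (95% interval -0.030 to 0.60, limma adjusted p of 1). The fitted DNMT3L value of -0.31 ± 0.18 rests on signals below the array median on all 4 arrays, so its size is not read as a difference. DNMT1 had 0.02 ± 0.12 and UHRF1 0.14 ± 0.15. The sign was the same in FL and CD for 9 members (42.9%), higher with wild type in DNMT3B, MBD1, ZBTB4, ZBTB38, TDG and NTHL1 and lower in DNMT3L, SMUG1 and APEX1, against 47.9% of clusters. DNMT3L stands in this count by the rule alone, and no direction is read from its signals below the median. All 21 intervals stayed within 2-fold, as did 93.4% of those of all clusters, and 0 members were 2-fold apart in CD (0.563% of clusters) or in FL (0.736%). The median absolute difference was 0.046 for the members and 0.088 over all clusters. Whether the wild-type minus mutant difference itself differed between CD and FL was tested in a fit with 1 mean per group and 1 residual degree of freedom. The largest values were UHRF1, at -0.44 ± 0.25, with wild-type minus mutant of -0.08 in CD and 0.36 in FL, and NEIL2, at -0.41 ± 0.26. No member and 0% of clusters passed in limma, and at an unadjusted p under 0.05 there were 0 members and 0.839% of clusters. That fit was imprecise, with intervals within 2-fold for 5 members and 15% of clusters.

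The mean of the 4 TET1 plasmids against the vector asked what supplying TET1 of any form did. Again 0 of 21 members and 0% of clusters passed, and 2 members, TDG and NEIL1, had an unadjusted p under 0.05, against 15% of clusters. NEIL1 had 8.03, 8.08, 8.06 and 7.98 with TET1-FL, mTET1-FL, TET1-CD and mTET1-CD, against 8.64 with the vector. The fitted NEIL1 difference was -0.60 ± 0.16 (95% interval -1.02 to -0.18, limma adjusted p = 0.237). TDG was higher with every TET1 plasmid, by 0.34 to 0.66 log2 units, and its fitted difference was 0.51 ± 0.14 (0.15 to 0.88, limma adjusted p = 0.240). Set against the control shRNA clone in place of the vector, TDG had the opposite sign, at -0.50, and NEIL1 had -0.22. MBD1 followed at 0.44 ± 0.18 and ZBTB33 at -0.31 ± 0.13, while DNMT1 had 0.0038 ± 0.14 and UHRF1 0.25 ± 0.17. Against shControl these values were 0.15 for MBD1, 0.25 for ZBTB33, 0.33 for DNMT1 and -0.65 for UHRF1, and the sign turned for 9 of the 21 members. Here too the share over all clusters was not counted. All 4 plasmids lay above the vector for 8 members (38.1%: MBD1, MBD2, MBD4, ZBTB38, CXXC1, TDG, SMUG1 and XRCC1) and below it for 4 (19.0%: ZBTB33, CXXC4, NEIL1 and NTHL1), against 27.2% of clusters above and 27.2% below. No member was 2-fold apart from the vector with TET1-FL (3.6% of clusters), mTET1-FL (3.03%), TET1-CD (3.68%) or mTET1-CD (3.14%). The interval stayed within 2-fold for 20 members, all but NEIL1, and for 81.3% of clusters.

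**Figure D3:**
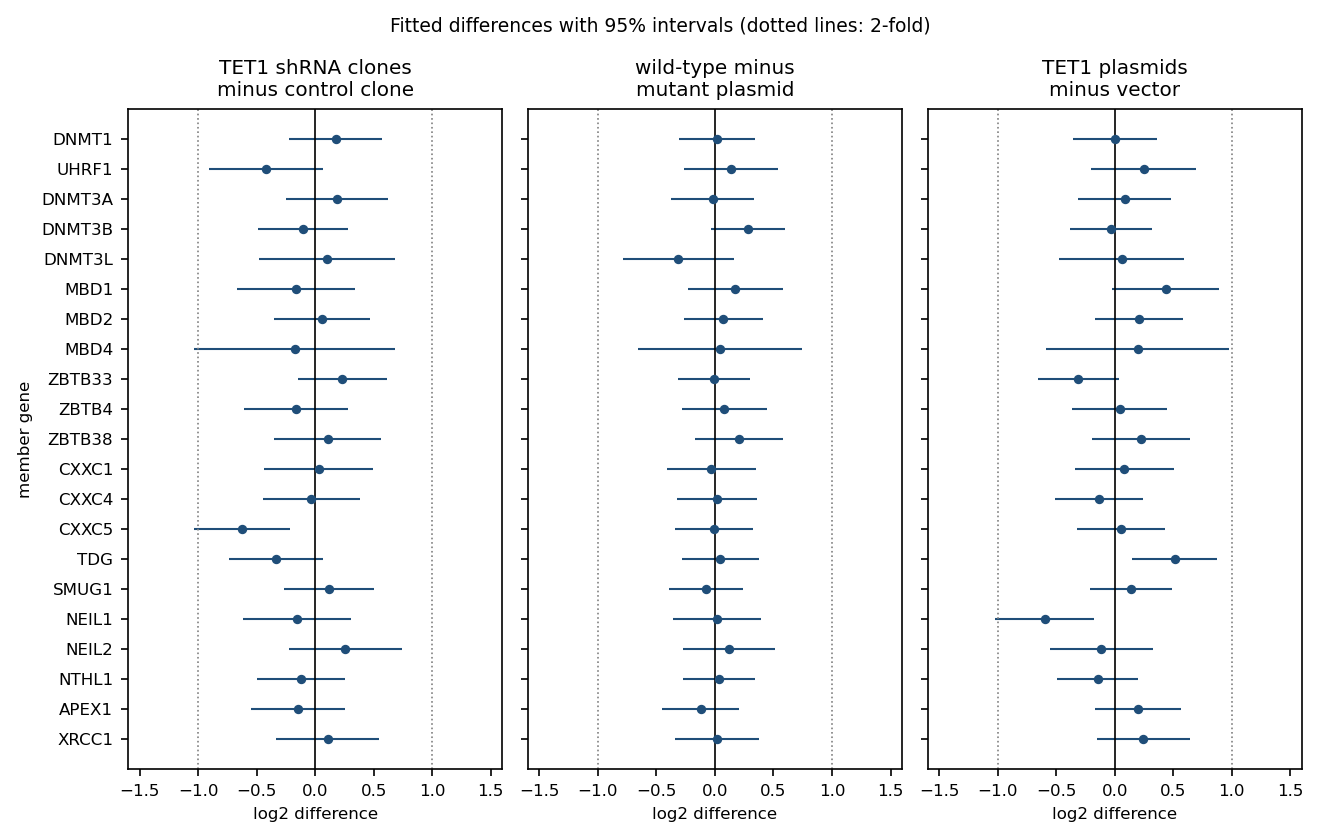
Fitted log2 difference (point) with its 95% interval (line) for each member in 3 comparisons, with dotted lines at 2-fold. CXXC5 on the left and NEIL1 and TDG on the right have intervals that leave out 0, and every interval in the middle panel includes 0; none passed the adjusted threshold.

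The FL constructs against the CD constructs, each as the mean of wild type and mutant, compared the constructs with each other. The fitted difference was below 0 for 13 of 21 members (61.9%), against 49.3% of clusters, DNMT1, UHRF1, DNMT3A and DNMT3B among them. This count includes DNMT3L, whose sign carries no reading here, so the share is not read as a shift of the set. No member passed (0 of 21, against 0% of clusters), and the 3 members with an unadjusted p under 0.05 were UHRF1, DNMT3B and APEX1, all lower with FL, against 13.7% of clusters (4.87% lower). UHRF1 had 8.84 and 8.48 with the FL plasmids, against 9.11 and 9.19 with the CD plasmids, a difference of -0.49 ± 0.15 (95% interval -0.89 to -0.091, limma adjusted p = 0.287). The wild-type pair alone differed by -0.27 and the mutant pair alone by -0.71, so the UHRF1 value leans on the mutant arrays. APEX1 had 10.31 and 10.46 with FL, against 10.76 and 10.84 with CD, a difference of -0.41 ± 0.13 (limma adjusted p = 0.277). DNMT3B differed by -0.36 ± 0.12 (limma adjusted p = 0.308), XRCC1 by -0.29 ± 0.14, DNMT3A by -0.23 ± 0.14 and DNMT1 by -0.20 ± 0.12. DNMT3L lay below the median on all 4 of these arrays, so no direction is read from its value. The FL arrays lay wholly below the CD arrays for 10 members (47.6%: DNMT1, UHRF1, DNMT3A, DNMT3B, MBD2, CXXC5, TDG, SMUG1, APEX1 and XRCC1), against 25.7% of clusters, and wholly above them for 2 (9.52%: NEIL2 and NTHL1), against 27.6%. For CXXC5 the gap was very small, with 7.406 for TET1-FL and 7.408 for TET1-CD. Over both directions the 12 members (57.1%) stood near the 53.3% of all clusters. All 21 intervals were within 2-fold, against 86.8% of clusters. The median member difference was -0.10, against 0.0031 over all clusters. The TET1 signal of cluster 16705381 was itself higher with FL, at 12.22 and 12.47 against 10.42 and 11.05 with CD. By cluster 16715048 it was not, at 11.80 and 11.91 with FL against 12.10 and 12.03 with CD. The CD constructs hold only a part of TET1, and where the probes of each cluster lie along TET1 was not examined. Signals of FL and CD are therefore not read as an order of TET1 level. The part of that level in these differences was not tested.

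The 3 lentiviral arrays against the 5 plasmid and vector arrays set stable clones beside transiently transfected, sorted cells, and both sides include cells given a TET1 shRNA or TET1 plasmid as well as a control. Delivery, cloning, sorting and time in culture cannot be told apart here. This was the comparison with calls, 1566 clusters or 5.41%, and 0 of 21 members passed. With so few members that count is not read as apart from the share over all clusters. Members passed under some other settings, as given further below. At an unadjusted p under 0.05 there were 5 members (26.6% of clusters), 3 higher in the lentiviral arrays (UHRF1, TDG and APEX1, 14.3% of members, against 11.5% of clusters) and 2 lower (MBD4 and XRCC1, against 15.1%). XRCC1, the repair scaffold, came closest. It had 9.62, 9.41 and 9.41 in shTET1#1, shTET1#2 and shControl, against 9.75 to 10.18 in the plasmid and vector arrays, a difference of -0.47 ± 0.10 (95% interval -0.73 to -0.21, limma adjusted p = 0.0663). MBD4 had the largest difference, -0.59 ± 0.20 (-1.11 to -0.081, limma adjusted p = 0.145), and it leaned on shTET1#2, without which it was -0.38. UHRF1 differed by 0.42 ± 0.11 (limma adjusted p = 0.0966), TDG by 0.38 ± 0.092 (limma adjusted p = 0.0804), APEX1 by 0.28 ± 0.093 (limma adjusted p = 0.141) and DNMT1 by -0.21 ± 0.091 (limma adjusted p = 0.228). The arrays did not overlap for 5 members (23.8%, against 15.9% of clusters), DNMT1, MBD4, ZBTB4, CXXC1 and XRCC1, all lower in the lentiviral arrays (8.18% of clusters lower). Some of these gaps were very small. The nearest values were 10.511 (shTET1#1) and 10.512 (mTET1-FL) for DNMT1, and 7.408 (shControl) and 7.438 (mTET1-CD) for ZBTB4. For CXXC1 they were 7.942 (shTET1#1) and 7.981 (vector). The interval stayed within 2-fold for 20 members, all but MBD4, and for 91.4% of clusters. Without shTET1#1 the differences were -0.54 for XRCC1 and -0.75 for MBD4. The call count was fragile in turn, with 0 clusters called when any 1 of the 4 TET1 plasmid arrays was left out. The count was 448 without shControl. Leaving out a TET1 plasmid array or a TET1 shRNA clone also removes a residual degree of freedom, so the error of the fit changes with the array. Calls without 1 of the clones are not read, since the difference between the clones then no longer enters the error.

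**Figure D4:**
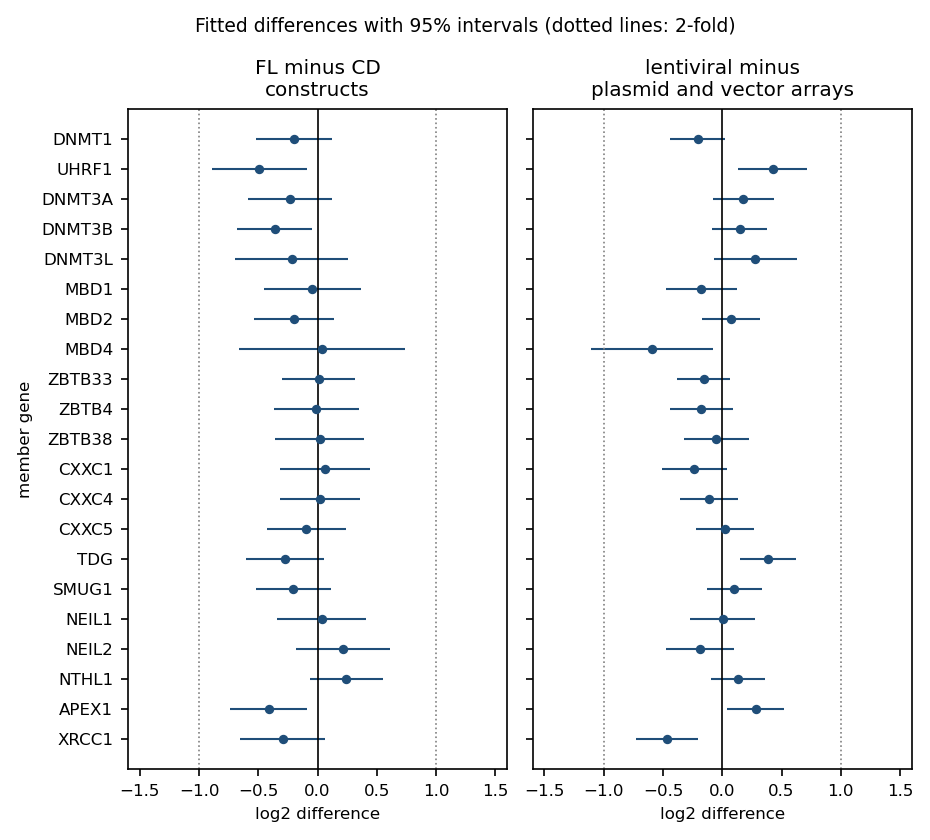
Fitted log2 difference (point) with its 95% interval (line) for each member, FL minus CD constructs on the left and lentiviral minus plasmid and vector arrays on the right, with dotted lines at 2-fold. The intervals of UHRF1, DNMT3B and APEX1 lie below 0 on the left, and XRCC1 and MBD4 lie lowest on the right; none passed the adjusted threshold.

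Genes that work beside the members were described from lists. In the 4 comparisons that asked about TET1 (shRNA, wild type against mutant, plasmids against vector and FL against CD), 0 of the 93 kept entries of 6 lists (FEN1 is in 2 of them) passed in limma. No cluster outside the lists passed in them either (0% of all clusters). At an unadjusted p under 0.05 there were 5 entries with shRNA (5.38%, against 7.93% of clusters), 0 for wild type against mutant (1.96% of clusters), 17 for the plasmids against the vector (18.3%, against 15%) and 18 with FL against CD (19.4%, against 13.7%). Of the 17 entries, 9 were p53 targets. For base excision and strand-break repair (12 kept of 17 listed), the median difference lay between -0.11 and -0.04 in these 4 comparisons, and 1 gene had an unadjusted p under 0.05, HMGB1, a DNA-bending protein, at 0.46 ± 0.17 with FL against CD. For chromatin proteins tied to methylation (21 kept of 26), 16 of 21 were below 0 with FL against CD, where 49.3% of all clusters were, led by SUV39H2, a histone H3 lysine methyltransferase, at -0.54 ± 0.12 (limma adjusted p = 0.182), and SMCHD1, a silencing factor of the inactive X, at -0.47 ± 0.14. For methyl-donor and 2-oxoglutarate metabolism (14 kept of 28), 11 of 14 were below 0 with FL against CD and 11 of 14 with the plasmids against the vector, where 49.8% of clusters were. CBS, which draws homocysteine away from the methionine cycle, had -0.59 ± 0.14 with FL against CD, and D2HGDH, which clears 2-hydroxyglutarate, had -0.71 ± 0.13 with the plasmids against the vector (limma adjusted p = 0.188). For replication and G1/S genes (21 kept of 24), 15 of 21 were below 0 with TET1 shRNA, against 52.2% of clusters, and 1 had an unadjusted p under 0.05. The helicase subunits MCM5 and MCM2 had -0.47 ± 0.17 and -0.42 ± 0.17. With FL against CD 14 of 21 were below 0, with CDC45, a helicase partner, at -0.50 ± 0.16 and PCNA, the sliding clamp, at 0.42 ± 0.12.

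Between lentiviral and plasmid or vector arrays 10 list genes passed in limma, 2 higher and 8 lower, among the 93 kept entries. Of all clusters 5.41% passed. At an unadjusted p under 0.05 there were 41 entries (44.1%), against 26.6% of clusters. PARP1, which senses strand breaks and recruits XRCC1, was higher, at 10.84, 10.81 and 10.97 in shTET1#1, shTET1#2 and shControl against 10.14 to 10.43 in the plasmid and vector arrays, a difference of 0.63 ± 0.088 (limma adjusted p = 0.0364). CBS rose as well, by 0.73 ± 0.11 (limma adjusted p = 0.0375). CDT1, the licensing factor for replication origins, differed by -0.99 ± 0.10 (limma adjusted p = 0.0265). PARP1 was thus higher and its partner XRCC1 lower in value in the same arrays. The other 7 belong to stress lists and had lower means in the lentiviral arrays. For PLK2 the control arrays do not share that order, with 5.69 for the vector against 5.84 for shControl, and for BBC3 they were close, at 6.45 and 6.42. The PLK2 difference thus rests mainly on the TET1 plasmid arrays, at 6.53 to 8.08. For BBC3 the FL plasmids stood highest, at 7.04 and 7.18, with TET1-CD at 6.45, as the vector, and mTET1-CD at 6.62. JUNB was similar, with the FL plasmids at 8.14 and 8.10 and the CD plasmids at 7.29 and 7.49. Its control arrays were close, at 7.20 for the vector and 7.11 for shControl. Of 11 kept p53 targets, all 11 had a difference below 0 (52.2% of clusters) and 3 passed, the kinase PLK2 (-1.71 ± 0.092), the secreted factor GDF15 (-1.57 ± 0.13) and the cell-death gene BBC3 (-0.51 ± 0.088), with limma adjusted p-values of 0.0139, 0.0213 and 0.0459. The control arrays did not share that common sign. The vector lay below shControl for BAX (7.55 against 8.02), RRM2B (6.88 against 7.52), TP53I3, SESN1, PLK3 and PLK2. It lay above shControl for GDF15, BBC3, SESN2, TP53INP1 and EDA2R. For EDA2R the sign below 0 rests on shControl, at 4.64. The TET1 shRNA clones had 7.00 and 7.62 for EDA2R, against 6.54 for the vector and 7.00 to 7.51 with the TET1 plasmids. Its fitted TET1 shRNA difference was 2.67. Of 14 kept immediate early and stress genes, 9 had a difference below 0 and 4 passed, the transcription factors ATF3 (-1.88 ± 0.18), DDIT3 (-1.34 ± 0.14), JUN (-1.04 ± 0.14) and JUNB (-0.62 ± 0.097), with limma adjusted p-values of 0.0238, 0.0268, 0.0351 and 0.0419. The list medians were -0.58 for the p53 targets and -0.45 for the immediate early and stress genes, against -0.014 over all clusters. Within the plasmid and vector arrays, where no gene of these lists passed, the medians of the p53 targets and of the immediate early and stress genes were 0.29 and 0.54 for FL against CD, and 0.77 and 0.18 for the TET1 plasmids against the vector. Their part in the members' differences was not tested.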

How the data were processed

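Total RNA from 8 HEK293T samples was measured on Affymetrix arrays. The deposited values are log2 signals. Affymetrix Expression Console 1.3.1 and RMA are named in the submitters' processing notes, without roles or order. The genome build is not given in the sources used here. RMA draws arrays to 1 distribution, so a shift of all genes would not show. Of 53981 rows, 364 held no value. Gene symbols came from the platform annotation.

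Clusters above their array's median on at least 2 of the 8 arrays were kept (28946). One additive fit over all arrays (limma 3.58.1, R 4.3.3, lmFit and eBayes) had terms for control shRNA, TET1 shRNA, vector, wild type, mutant and construct, 2 residual degrees of freedom and a prior SD of 0.154. Adjusted p-values are Benjamini-Hochberg values. The fit was run on simulated data with independent noise and additive differences. That run checked the estimates of planted differences and cannot show whether the p-values hold for these arrays. Alternatives were cyclic loess, median centring, no filter, 1 cluster per symbol, a trended robust prior, other designs and controls, and each array left out.

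Members, lists and tests were chosen with earlier results of these data known. All members are named. Full values are given for DNMT1, UHRF1 and the 2 largest differences per comparison, and from each list for the 2 largest differences in a comparison described and all genes called. Values of further members are given as the data of the set.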

Additional observations from a re-analysis of the deposited data

How the results depend on the processing

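The number of arrays limits every value, since most groups have 1. In the comparisons of shRNA, wild type against mutant, plasmids against vector, FL against CD and the interaction of mutation with construct, 0 members passed under every alternative run. Over all clusters, taking 1 named cluster per symbol gave 5 calls for TET1 shRNA (0 as reported), and centring each array on its median gave 1 for the plasmids against the vector and 36 for the interaction (0 and 0 as reported); the cause was not tested. For lentiviral against plasmid and vector arrays, 1 member passed with cyclic loess (XRCC1, limma adjusted p = 0.0484), 1 with a trended robust prior (XRCC1, 0.0387) and 2 with 1 cluster per symbol (XRCC1, 0.0348, and TDG, 0.0438), a setting that tests fewer clusters. Leaving out single arrays gave 0 to 2 members, and 0 to 2858 clusters against 1566 as reported. No filter gave 135 clusters and the trended robust prior 2482, and the cause was not tested. A design with 2 groups alone gave 1235 clusters and 0 members. Exchanging the control turned the sign of 10 members with TET1 shRNA, among them UHRF1 (0.48 with the vector as the control, -0.42 with shControl), and of 9 members with the plasmids, among them TDG (-0.50 with shControl as the control, 0.51 with the vector). Some alternative turned the sign of the fitted difference for 14 members with shRNA, 12 for wild type against mutant, 10 for plasmids against the vector, 7 for FL against CD and 2 for lentiviral against plasmid arrays, in the last for members with differences up to 0.026. Sign changes were counted for members alone, so they cannot be set against a share of all clusters. Each member had 1 cluster, so no other cluster of a symbol could be compared. The construct term of the fit set wild type against mutant within FL and within CD, and FL against CD within wild type and mutant. No other pairing was possible, since the labels name no replicate cultures.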

Other observations

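ZBTB33, CXXC4 and NTHL1 each held the same value to the last digit on 3 arrays. For ZBTB33 it was 9.56, for CXXC4 5.76 and for NTHL1 7.69. MBD1 held 7.68 on 2 arrays, shTET1#1 and shControl. Such ties on at least 2 arrays were found in 4 members (19.0%) and in 26.0% of all kept clusters, and ties on at least 3 arrays in 3 members (14.3%) and in 10.1% of kept clusters.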
